A study of Mus musculus with 4 samples.

Results

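In an H3K27ac HiChIP experiment on mouse embryonic stem cells, 141 genomic intervals gave read pairs in both libraries of the C57BL/6J strain and almost none in the libraries of DBA/2J. They are 141 of the 51820 anchors with at least 20 counts (0.272%), among 56562 anchors in the deposited table. An anchor is an interval between which contacts were counted, and its count is the sum over all anchor pairs (loops) that use it. Counts were divided by each library's total, and an anchor was taken when the D2 mean lay under 0.1 of the B6 mean. The choice rests on these same counts, so the B6 and D2 levels of the chosen anchors are given as a description, with no test.

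The 4 libraries came from 4 cell lines, B6 4-1 and B6 5-1 (strain and genotype C57BL/6J, called B6) and D2 2-9 and D2 5-5 (DBA/2J, called D2). Each line was 1 library. All lines were grown in serum medium with LIF, the MEK inhibitor PD0325901 and the GSK3 inhibitor CHIR99021, a mixture that keeps mouse stem cells undifferentiated. In the library names, 10cyc stands in that of D2 replicate 1 and 8cyc in the other 3, and the labels do not explain it. Library totals were 2908329 and 2800847 counts in B6 and 2767882 and 2944258 counts in D2. Of 10 embryonic stem cell markers, 8 had an anchor over a start site, and their summed counts ran from 5064 to 7090 per library. Esrrb and Tfcp2l1 had no such anchor. All 4 primitive endoderm markers had one, with summed counts of 171 to 209 per library, as did all 3 neural markers (172 to 233) and 2 of 3 trophoblast markers (279 to 310, Elf5 without). Of 4 fibroblast markers 1 had an anchor, Thy1, with 10 to 22 counts per library. The part that other cell types have in the results was not tested.

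HiChIP joins DNA ends that lie close together in the nucleus and enriches the joined fragments with an antibody. H3K27ac, acetylation of lysine 27 on histone H3, marks active promoters and enhancers. An interval therefore gathers counts when its sequence is present, carries the mark, touches other intervals and yields reads that can be placed on the reference. The reference genome, mm10, is the sequence of C57BL/6J, and the submitters' processing notes name mm10 for all 4 libraries. Whether D2 holds the sequence of each interval was not tested.

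Many of these intervals have close copies elsewhere in the reference genome, so stretches of copied intervals are shown first. Every sequence here is from GRCm38 as RefSeq gives it, and capitals mark the bases at which the copies of a set differ. Each window was the first in its anchor whose copies differed from it at 2 to 5 bases and matched at both ends. The number of differing bases was thus set by the choice of window and does not measure how far the whole anchors differ. The first set is 120 bases from each of 2 anchors on chromosome 12, over the start sites of the predicted genes Gm6802 (chr12:19488018-19497154) and Gm49381 (chr12:20069369-20079912), which share 6622 stretches of 75 bases:
Gm6802 copy, chr12:19493302-19493421, plus strand: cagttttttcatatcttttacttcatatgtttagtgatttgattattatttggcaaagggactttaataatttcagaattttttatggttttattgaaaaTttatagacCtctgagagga
Gm49381 copy, chr12:20074644-20074763, plus strand: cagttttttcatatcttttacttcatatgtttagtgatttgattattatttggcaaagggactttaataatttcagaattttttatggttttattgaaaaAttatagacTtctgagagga
Only 2 of the 120 bases differ. These anchors had 16 and 10 counts in B6 and 0 and 2 in D2 at Gm6802, and 14 and 13 in B6 and 1 and 0 in D2 at Gm49381. The second set is from chromosome 13, where an anchor over the start site of Gm48246 (chr13:66333707-66340371) and one at chr13:66528533-66532276 share 2709 such stretches in opposite orientation:
Gm48246 copy, chr13:66336971-66337090, plus strand: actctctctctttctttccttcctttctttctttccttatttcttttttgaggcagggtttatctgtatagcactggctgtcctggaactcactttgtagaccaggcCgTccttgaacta
second copy on chromosome 13, chr13:66531817-66531936, minus strand: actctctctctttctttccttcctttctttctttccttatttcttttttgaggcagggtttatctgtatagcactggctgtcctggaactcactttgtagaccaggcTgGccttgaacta
These copies also differ at 2 bases. Gm48246 had 21 and 22 counts in B6 and 1 and 1 in D2, and the other copy 16 and 11 in B6 and 0 and 0 in D2. The third set lies on different chromosomes, in 3 intergenic anchors of which over 90% of the bases are soft-masked as repeats:
first copy on chromosome 4, chr4:55419662-55419781, plus strand: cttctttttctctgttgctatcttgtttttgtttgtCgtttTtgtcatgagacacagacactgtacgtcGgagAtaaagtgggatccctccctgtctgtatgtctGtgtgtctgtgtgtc
second copy on chromosome 4, chr4:149437638-149437757, minus strand: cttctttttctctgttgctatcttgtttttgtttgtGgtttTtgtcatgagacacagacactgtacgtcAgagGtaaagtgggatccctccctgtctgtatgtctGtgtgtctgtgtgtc
copy on chromosome 8, chr8:33715052-33715171, plus strand: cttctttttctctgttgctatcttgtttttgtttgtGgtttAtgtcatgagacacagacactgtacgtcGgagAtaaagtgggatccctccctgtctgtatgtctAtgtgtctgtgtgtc
The 3 copies differ at 5 of 120 bases. The first anchor of this set (chr4:55419283-55421643) had 23 and 12 counts in B6 and 1 and 0 in D2. The second (chr4:149435815-149438199) had 19 and 23 in B6 and 0 in both D2 libraries. The third (chr8:33714635-33717016) had 17 and 22 in B6 and 0 in both D2 libraries.

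Start sites of 2 related genes also lie in such anchors. Trim5 and Trim12a encode proteins of the tripartite motif family, which includes restriction factors that act on retroviral capsids. The 250 bases before each start site, from the RefSeq promoter table, share a run of 191 identical bases, which is in capitals here:
Trim5 upstream, chr7:104288107-104288356, minus strand: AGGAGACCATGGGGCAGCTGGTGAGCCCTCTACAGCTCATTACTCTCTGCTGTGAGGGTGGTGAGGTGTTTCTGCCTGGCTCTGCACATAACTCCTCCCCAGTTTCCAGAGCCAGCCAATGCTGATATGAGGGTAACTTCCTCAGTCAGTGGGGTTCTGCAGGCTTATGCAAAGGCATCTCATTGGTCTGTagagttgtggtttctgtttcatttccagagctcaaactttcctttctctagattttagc
Trim12a upstream, chr7:104315496-104315745, minus strand: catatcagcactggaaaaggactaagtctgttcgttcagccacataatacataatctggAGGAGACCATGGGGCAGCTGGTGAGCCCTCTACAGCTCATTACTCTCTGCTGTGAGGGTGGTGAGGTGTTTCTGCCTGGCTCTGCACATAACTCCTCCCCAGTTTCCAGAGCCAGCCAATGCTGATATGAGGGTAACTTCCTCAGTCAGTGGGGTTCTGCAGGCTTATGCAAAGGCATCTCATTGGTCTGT
Other intervals shared no 75-base stretch with another place in the reference. An anchor in an intron of Apbb2, which encodes an adaptor protein that binds the amyloid precursor protein, was single-copy in this sense at every stretch read, and 200 bases from its middle are shown with the DpnII site GATC in capitals:
Apbb2 intron, chr5:66496621-66496820, plus strand: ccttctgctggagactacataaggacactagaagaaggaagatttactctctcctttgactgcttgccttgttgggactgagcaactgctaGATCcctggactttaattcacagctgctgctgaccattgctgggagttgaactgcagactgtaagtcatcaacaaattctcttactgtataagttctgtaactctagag
This anchor (chr5:66495465-66497978) had 58 and 60 counts in B6 and 2 and 0 in D2. Of the 13 protein-coding genes with a start site in the 141 anchors, 9 have an entry in the promoter table.

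The 141 anchors held 3668 and 3677 read pairs in the B6 libraries and 118 and 156 in the D2 libraries. These were 0.126% and 0.131% of the B6 totals and 0.00426% and 0.00530% of the D2 totals. Every one of the 141 had at least 6 counts in each B6 library, and none had more than 8 counts in a D2 library. The median anchor had 18 and 19 counts in B6 and 0 and 1 in D2. In 46 anchors both D2 libraries were at 0, in 54 one D2 library was at 0, and in 41 both had counts. In the same 51820 anchors, 0 had no count in either B6 library. In a fit of edgeR's quasi-likelihood test to all 51820 anchors all 141 were lower in D2, beside 7.08% of the whole, and nothing is read from this because the choice used the same counts.

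**Figure D1:**
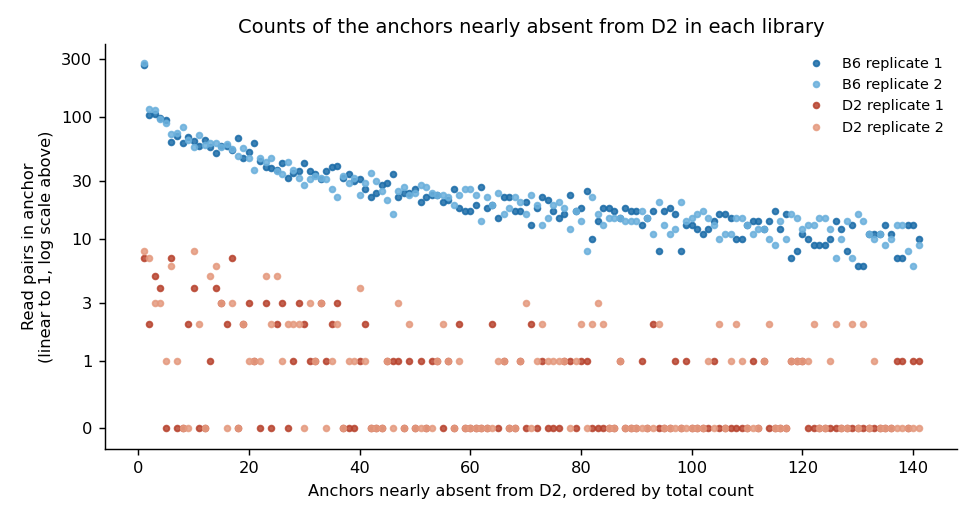
Read pairs (vertical axis, linear up to 1 and logarithmic above) in each of the 141 anchors, ordered along the horizontal axis by total count, with 1 point per library. The B6 points run from 6 to 280 counts and lie above the D2 points, which run from 0 to 8 counts.

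Most of the anchors were thinly counted. The median total was 38 counts over the 4 libraries (range 20 to 564), and 21 anchors had at least 100. With totals this low, a count of 0 in D2 does not show that an interval has no signal. For anchors with counts in D2, the B6 to D2 ratio of pooled counts over library totals is given with an exact (Clopper-Pearson) 95% counting interval. For anchors at 0 it is given as a lower bound against 3 counts over both D2 libraries. These intervals cover counting error only, since read pairs are not independent molecules. They allow neither for the choice of the anchors by this same ratio nor for the spread between lines. Intervals and lower bounds are therefore a description and no limits on the strain difference.

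The anchor with the most counts was intergenic, at chr5:104720596-104740554, with Zfp951, a zinc finger gene, as the nearest protein-coding gene. It had 269 and 280 counts in B6 and 7 and 8 in D2, a 36.6-fold ratio (interval 22.0 to 65.9). Both D2 libraries were far below both B6 libraries. An intergenic anchor on chromosome 13 (chr13:66597733-66607919) followed, with 104 and 117 counts in B6 and 2 and 7 in D2 (24.6-fold, interval 12.7 to 54.4). The anchor over the start site of Zfp984 (chr4:147770388-147778718), another zinc finger gene, had 106 and 115 counts in B6 and 5 and 3 in D2 (27.6-fold, interval 13.8 to 64.8). An anchor over 1700030C10Rik, a RIKEN transcript (chr12:20801384-20818097), had 99 and 96 counts in B6 and 4 and 3 in D2 (27.9-fold, interval 13.3 to 70.2). In all 4 anchors the lowest B6 count was more than 10 times the highest D2 count.

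Several well-counted anchors were almost empty in D2. The anchor over Gm8815 on chromosome 17 (chr17:36094572-36100952) had 95 and 90 counts in B6 and 0 and 1 in D2. With a single D2 count its ratio of 185 has an interval from 32.8 to 7350. The anchor over Ear-ps5, a pseudogene of the eosinophil-associated ribonucleases (chr14:51836308-51842965), had 70 and 74 counts in B6 and 0 and 1 in D2. The anchor over the start site of 5730507C01Rik (chr12:18512763-18529930) had 69 and 65 counts in B6 and 2 and 0 in D2. The 10 anchors with the most counts also include 1 over Trim12a, given below with those at 0 in D2, and 2 that kept more of their signal. In an exon of Zbtb37 (chr1:161014290-161016608), a zinc finger and BTB domain gene, there were 63 and 73 counts in B6 and 7 and 6 in D2 (10.5-fold, interval 5.92 to 20.2). The intergenic anchor at chr7:43049683-43058215 had 64 and 57 in B6 and 4 and 8 in D2 (10.1-fold, interval 5.57 to 20.1).

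Among the 46 anchors at 0 in both D2 libraries, 3 had far more B6 counts than the rest. The anchor over a start site of Trim12a (chr7:104295079-104303442) had 61 and 84 counts in B6, which is 48.4-fold against 3 counts in D2. The anchor over the start site of Trim5 (chr7:104285806-104292251) had 65 and 59 counts in B6, or 41.4-fold on the same footing. The third was intergenic near Gm15448 (chr7:3800406-3806308), with 68 and 48 counts in B6.

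The threshold of 0.1 cut through a continuous range. Just inside it were anchors at chr3:31706514-31711409 (ratio 0.0968), in an intron at chr1:190408826-190412534 (0.0975) and at chr7:43049683-43058215 (0.0983). Just outside were chr13:64419040-64423303 (0.101), chr13:66853371-66870329 (0.102) and chr14:53674714-53677790 (0.103). The anchors inside had D2 counts of 0 and 3, 0 and 2, and 4 and 8, and those outside 1 and 3, 5 and 11, and 0 and 2. With the strains exchanged, 0 anchors met the same rule. At a threshold of 0.2 there were 273 anchors low in D2 and 7 low in B6, and at 0.5 there were 2690 and 360.

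All 4 libraries entered the choice of the 141, so the rule was also applied to 1 pair of libraries and read in the other pair, on sets that overlap the 141 without being the same. When anchors were chosen on replicate 1 of each strain (at least 10 counts over those 2 libraries), 188 met the rule, and in replicate 2 the D2 to B6 ratio was under 0.1 in 114 of them (60.6%) and under 0.5 in 177. Over all 51528 anchors that passed the count minimum, 0.332% were under 0.1 in replicate 2. Chosen on replicate 2, 177 anchors met the rule and 113 (63.8%) were under 0.1 in replicate 1, beside 0.445% of all. Of the 188 and the 177 chosen anchors, 121 and 118 are among the 141. The ratio was 1 or more in the held-out pair for 5 and 8 of the chosen anchors.

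The 141 anchors were spread unevenly over 17 of the 19 autosomes. Chromosome 12 held 40, which is 1.80% of its anchors with at least 20 counts. Chromosome 4 held 14, chromosome 13 held 12, chromosome 7 held 11, and chromosomes 8 and 14 held 10 each. Chromosomes 15 and 18 held 0.

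**Figure D2:**
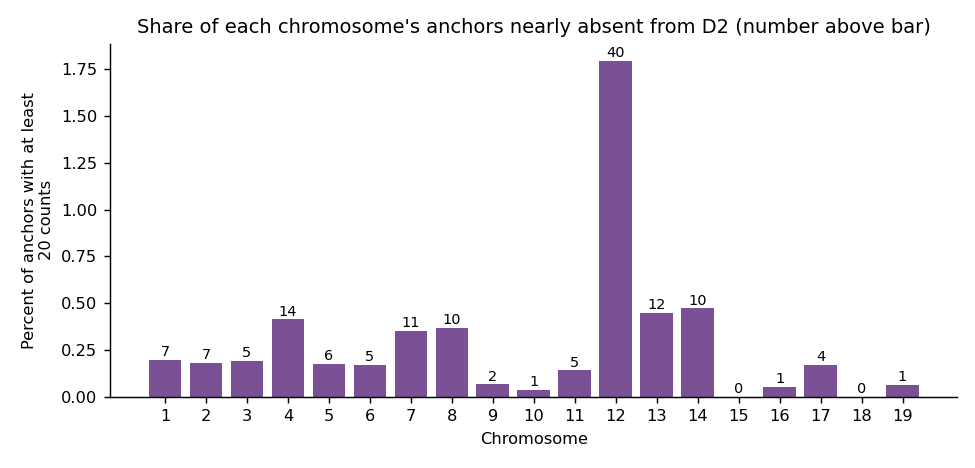
Percent of each autosome's anchors with at least 20 counts that are nearly absent from D2, with their number above each bar. Chromosome 12 stands at 1.80% with 40 anchors, and the next highest, chromosome 14, at 0.472% with 10.

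Of the 40 anchors on chromosome 12, 33 lay in a single stretch of 6.49 Mb (chr12:17870181-24359164). They were 32.4% of its 102 anchors with at least 20 counts. These 33 anchors together had 879 and 826 counts in B6 and 25 and 30 in D2. The other 69 anchors of the stretch had a median D2 to B6 ratio of 0.545 (quartiles 0.342 and 0.679), and 2 of the 69 had a ratio of 1 or more. These ratios include loops to the chosen anchors, which have few D2 counts by the choice itself. After all loops that touch a chosen anchor were removed, 60 anchors of the stretch were tested. By edgeR's quasi-likelihood test 11 were lower in D2 and 0 higher (adjusted p under 0.05). The median share of the 75-base stretches that occur once in the reference was 49.9% in the 33 anchors and 73.3% in the other 69.

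Joined wherever the gap was at most 100 kb, the 141 anchors formed 90 clusters, of which 64 were single anchors and 9 held 3 or more. In 55 anchors (39.0%) the next anchor in genome order, on either side, also belonged to the set. The clusters with the most members held 7 anchors on chromosome 12, 7 on chromosome 2, 6 on chromosome 13 and 5 on chromosome 12. Next came 3 clusters of 4 anchors, of which the one on chromosome 7 had the most counts (439) and is described here.

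The Trim cluster on chromosome 7 (chr7:104255109-104320259) was an unbroken run of 4 anchors. In order along the chromosome, the anchor in an exon of Trim34a had 22 and 27 counts in B6 and 0 and 0 in D2, and the anchors of Trim5 and Trim12a described above were also at 0 in D2. The second anchor over Trim12a (chr7:104311906-104320259) had 58 and 57 counts in B6 and 3 and 3 in D2. The flanks differed from this run: the anchor over the start site of Trim34a just before it had 62 and 67 counts in B6 and 44 and 35 in D2. The anchor over Trim12c after it had 26 and 20 in B6 and 11 and 21 in D2. Between the run and Trim12c lay 1 anchor, with 4 and 4 counts in B6 and 4 and 2 in D2.

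The largest cluster on chromosome 12 (chr12:20801384-20994951) was a run of 7 anchors from 1700030C10Rik to Asap2, with 247 and 253 counts in B6 and 4 and 9 in D2. It held the start sites of 3110053B16Rik and Zfp125, and its last anchor covered the start site of Asap2, which encodes a GTPase-activating protein for Arf proteins, with 21 and 15 counts in B6 and 0 and 1 in D2. No other anchor lay between the 7. The next anchor, in an intron, had 12 and 16 counts in B6 and 4 and 9 in D2. The second cluster on that chromosome (chr12:18512763-18677087, 5 anchors) had 202 and 190 counts in B6 and 6 and 5 in D2.

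The cluster on chromosome 2 (chr2:177246321-177507887) covered start sites of Gm14409, Gm14418, Zfp970 and Gm14403, in a region of zinc finger and predicted genes. Its 7 anchors had 190 and 166 counts in B6 and 6 and 4 in D2. An anchor over Gm14412 inside the cluster was not a member, with 162 and 150 counts in B6 and 65 and 58 in D2. The 2 anchors just before the cluster, over Gm14410 and Gm14400, had ratios of 1.00 and 1.06.

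On chromosome 13 (chr13:66528533-66607919) 6 anchors had 270 and 270 counts in B6 and 10 and 12 in D2. Between them lay 2 other anchors. That over Gm49531 had 174 and 147 counts in B6 and 21 and 15 in D2, just outside the rule. The anchor over Gm49532, next to the member with the most counts on this chromosome, had 99 and 93 in B6 and 120 and 135 in D2. Past the cluster, the anchor over Gm48361 had 59 and 59 counts in B6 and 71 and 55 in D2.

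**Figure D3:**
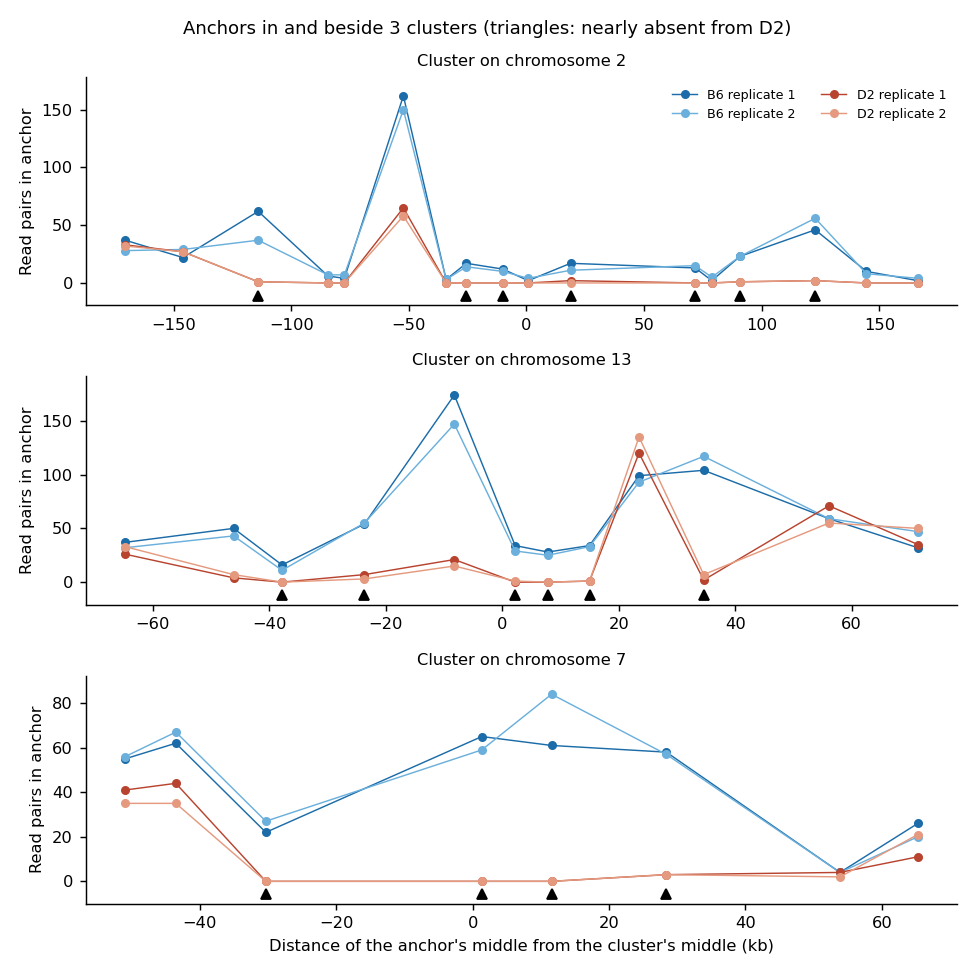
Read pairs per anchor (vertical axis) in each library, for every anchor from 2 before to 2 after the clusters on chromosomes 2, 13 and 7, against the distance of the anchor's middle from the cluster's middle in kb. Triangles mark the anchors nearly absent from D2. In the middle panel the D2 libraries rise to 120 and 135 counts at Gm49532 between members where they are at most 7.

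The anchors were seldom over promoters of protein-coding genes. A start site of any gene lay in 50 of 141 (35.5%, beside 35.2% of all anchors with at least 20 counts). A protein-coding start site lay in 14 (9.93%, beside 28.5%), and 59 were intergenic (41.84%, beside 27.03%). The 14 anchors covered Vmn1r1, Gm14409, Gm14418, Zfp970, Gm14403, Zfp534, Zfp984, Gm10354, Trim5, Trim12a (with 2 anchors), 5730507C01Rik, Asap2 and Gm9732. Vmn1r1, a vomeronasal receptor gene (chr1:182161421-182165605), had 58 and 72 counts in B6 and 0 and 2 in D2. Gm14403 had 46 and 56 in B6 and 2 and 2 in D2, and Gm14409 had 62 and 37 in B6 and 1 and 1 in D2. Zfp534 had 39 and 43 in B6 and 3 and 5 in D2, the smallest ratio among those 4 (10.3-fold, interval 4.97 to 24.5). Zfp970 had 23 and 23 in B6 and 1 and 1 in D2.

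Families were assigned by gene symbol alone, so a gene with a Gm or RIKEN symbol was counted as predicted or RIKEN whatever it encodes. Counted in this way, zinc finger genes were the nearest protein-coding gene of 18 anchors (12.8%, beside 2.37% of all tested anchors). Many zinc finger genes of the mouse lie in clusters that arose by duplication, and members with a KRAB domain bring repressors to transposable elements. Genes with a zinc finger symbol overlapped 10 anchors (7.09%, beside 1.53%). They had a start site in 4 (2.84%, beside 0.894%), namely Zfp125, Zfp534, Zfp970 and Zfp984. Predicted and RIKEN genes had a start site in 39 anchors (27.7%, beside 12.6%). Olfactory receptor genes, which encode odorant receptors, were nearest to 5 anchors, which is 3.55% beside 0.39% of all. Vomeronasal receptor genes were nearest to 1 (0.709%, beside 0.255%), and these genes or their pseudogenes overlapped 4 (2.84%, beside 0.135%). Cytochrome P450 genes were nearest to 3 (2.13%, beside 0.249%), the inflammasome gene Nlrp1b to 2 (1.42%, beside 0.0386% for its family), and Skint4 and the defensin gene Defb3 to 1 each (0.709%, beside 0.0135% and 0.0579%). Pluripotency genes, histone genes, class I and II histocompatibility genes, guanylate-binding proteins, Ifi200 genes, C-type lectin receptors, taste receptors, major urinary proteins, UDP-glucuronosyltransferases, serpins, PRAME-like genes, sulfotransferases, ABC transporters, protocadherins and keratins were over or nearest to 0 of the 141. Each of these families was nearest to only 5 (Ifi200) to 150 (ABC transporters) of the 51820 tested anchors. Genes of a family that carry another symbol, such as a Gm number, were not counted with it. Nothing is therefore read from a 0. These are counts beside counts, and no enrichment was tested.

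In sequence, the 141 anchors stood out by repetition. Reads of 75 bases were sequenced, so each anchor was scored by the share of its 75-base stretches that occur once in the reference, read every 20 bases on either strand. The median share was 62.7% in the 141 anchors and 99.6% in all anchors with at least 20 counts. It was under 90% in 104 of the 141 (73.8%, beside 7.67%) and under 50% in 55 (39.0%, beside 1.99%). Read the other way, 5.35% of all tested anchors with a share under 50% were nearly absent from D2, 1.66% of those from 50 to 90%, 0.113% of those from 90 to 99%, and 0.0596% of those at 99% or more. All tested anchors in these 4 bins had median D2 to B6 ratios of 0.830, 0.931, 0.994 and 0.978. The part that repeated sequence has in the missing D2 counts was not tested.

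**Figure D4:**
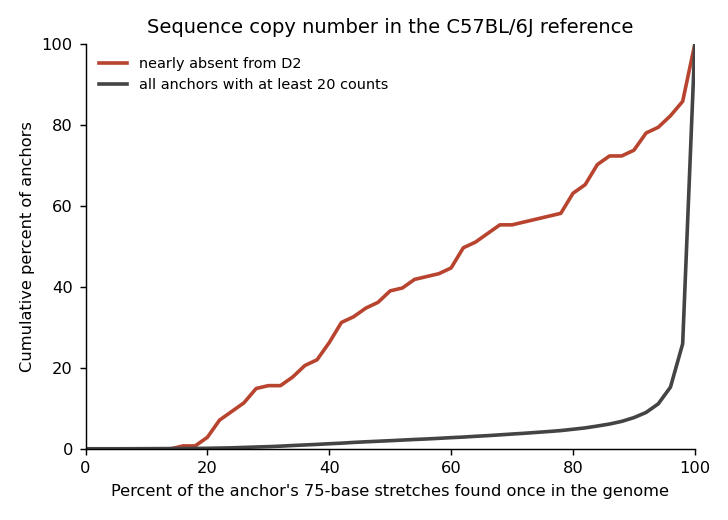
Cumulative percent of anchors (vertical axis) against the percent of an anchor's 75-base stretches that occur once in the reference genome (horizontal axis), for the 141 anchors nearly absent from D2 and for all 51820 anchors with at least 20 counts. The curve of the 141 anchors rises over the whole range, with a median of 62.7%, and that of all anchors rises close to 100%.

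Much of the repeated sequence was copied nearby. In 87 of the 122 anchors with a share under 99%, at least 50% of the repeated stretches had a copy within 5 Mb on the same chromosome. In 94 of the 141 anchors some stretch also occurred in another of the 141, as in the sets printed above. Soft-masked bases made up a median of 39.6% of the anchor (24.2% in all tested anchors), and 8 of the 141 were over 90% soft-masked. Other features were closer to those of all anchors: the median width was 4863 bp beside 4272 bp, the GC content 43.4% beside 45.4%, and the number of GATC sites 2.21 per kb beside 2.13.

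Repetition did not extend to the whole set. In 19 of the 141 anchors at least 99% of the stretches were single-copy. Together these had 466 and 516 counts in B6 and 18 and 18 in D2, and 6 of the 19 were at 0 in both D2 libraries. They lay on 10 chromosomes, and 13 had no other member within 100 kb. The exon of Zbtb37, the start site of Vmn1r1 and the intron of Apbb2 belong here. So does an exon of Ttc41, a tetratricopeptide repeat gene (chr10:86742299-86745511), with 57 and 61 counts in B6 and 1 and 5 in D2. The anchor over Gm5358 (chr8:127039152-127041393) had 32 and 33 counts in B6 and 0 and 0 in D2, which is 21.7-fold against 3 counts in D2.

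The 141 anchors took part in 3446 loops, 0.228% of the 1513030 in the table, and 162 of these joined 2 of the anchors to each other. The loops within the set had 265 and 270 counts in B6 and 1 and 2 in D2. An anchor of the set used a median of 22 loops, beside 52 for all tested anchors. The median total count was 38 in the set and 220 in all tested anchors, and loop numbers at like counts were not compared. Contacts of the set reached further in B6 than contacts at large, with median distances of 213.3 and 198.5 kb beside 120.4 and 119.5 kb over all loops. In D2 the few counts of the set (118 and 156) had medians of 380.9 and 326.6 kb, beside 104.9 and 110.2 kb. Distances of other anchors with as few counts were not compared.

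The loop with the most counts joined the chromosome 5 anchor to the start sites of Pkd2 and Spp1 (chr5:104430147-104478349), genes for polycystin 2 and osteopontin. It had 31 and 22 counts in B6 and 3 and 0 in D2. The same anchor and an intergenic one (chr5:104789278-104803442) had 25 and 24 counts in B6 and 0 and 2 in D2, and with a start site of Zfp951 (chr5:104825480-104841649) it had 22 and 21 in B6 and 0 in both D2 libraries. The Zbtb37 exon and the Zbtb37 start site shared 18 and 26 counts in B6 and 2 and 2 in D2. The Ttc41 exon and the start site of Nt5dc3, a gene for a nucleotidase-domain protein, shared 22 and 24 in B6 and 1 and 0 in D2. Of the loops that touch the set, 24 had at least 20 counts. By edgeR's quasi-likelihood test all 24 were lower in D2, beside 0.957% of all 108034 tested loops. DESeq2's Wald test called 0 of the 24, each with an unadjusted p under 0.05. The choice of the anchors used these counts, so nothing is read from this number.

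The read pairs of other anchors gave a measure that the choice did not use. All loops that touch the 141 anchors were removed, and the counts of the remaining 51664 anchors with at least 20 counts were compared between D2 and B6 in edgeR by its quasi-likelihood test, with p adjusted over all of them by Benjamini and Hochberg (threshold 0.05). The p-values weigh the D2 to B6 difference against the spread among libraries of a strain. Each line gave a single library, so spread between lines cannot be told apart from spread between libraries. Of all anchors, 6.71% were lower and 2.59% higher in D2 (9.3% in all). Within 100 kb of a member 414 anchors were tested, and 114 were lower (27.5%) and 18 higher (4.35%). The median log2 fold change of these neighbours was -0.40, beside 0.01 over all anchors. Within 20 kb, 45 of 113 were lower (39.8%) and 2 higher. DESeq2's Wald test, which called fewer anchors throughout, called 44 of the 414 lower (10.6%, beside 1.89% of all) and 5 higher.

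The shift was largest within 20 kb, changed little from 20 to 500 kb and was smaller further out. The median log2 fold change was -0.68 up to 20 kb from the nearest member. It was -0.35 from 20 to 50 kb, -0.309 from 50 to 100 kb, -0.305 from 100 to 200 kb and -0.28 from 200 to 500 kb. From 500 kb to 1 Mb it was -0.16, and from 1 to 2 Mb -0.07. Beyond 2 Mb it was 0.02, and on the chromosomes without a member it was 0.03. In these same steps 39.8%, 22%, 23.5%, 18.4% and 22.7% of the anchors were lower up to 500 kb, then 16.8%, 9.94%, 5.81% and 2.61%. Next to single-copy members (at least 99%) 12 of 85 neighbours were lower (14.1%), beside 48 of 160 (30%) next to members with a share under 50%. This difference was not tested.

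**Figure D5:**
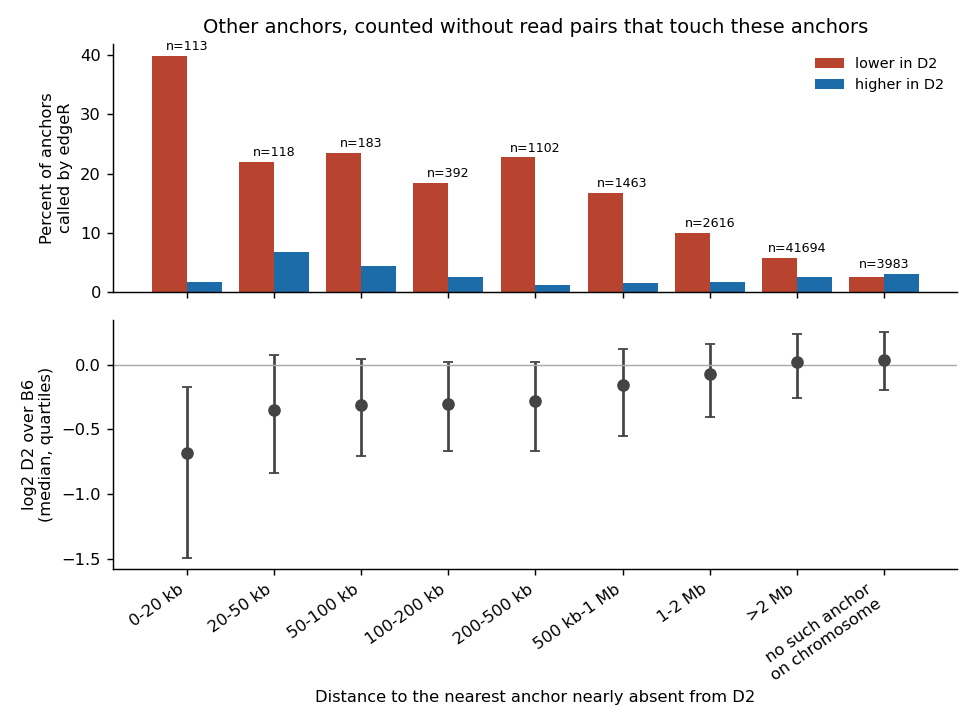
Upper panel: percent of anchors called lower or higher in D2 by edgeR, by distance to the nearest of the 141 anchors, with the number of anchors above the bars. Lower panel: median and quartiles of the log2 fold change of D2 over B6. Counts leave out every read pair that touches one of the 141 anchors. The median runs from -0.68 within 20 kb to 0.02 beyond 2 Mb.

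The 5 neighbours with the smallest adjusted p among those lower in D2 lay at 4 places. An intergenic anchor near Zfp951 (chr5:104900510-104922122, 4499 bp from a member) had 254 and 262 other counts in B6 and 29 and 29 in D2 (edgeR adjusted p 3.20e-15 for a log2 fold change of -3.12 with SE 0.20). In the exons of Zfp984 (chr4:147780653-147789283) there were 177 and 162 counts in B6 and 29 and 18 in D2 (fold change -2.81 on the log2 scale, SE 0.22), and in a further exonic anchor (chr4:147790624-147797417) 97 and 85 in B6 and 17 and 10 in D2, with log2 -2.71. Both lie beside the Zfp984 start-site anchor that belongs to the set. Gm49531 had 135 and 123 other counts in B6 and 21 and 15 in D2, with log2 -2.80. The anchor over H2-Bl, a class I histocompatibility gene next to Gm8815, had 111 and 107 in B6 and 18 and 21 in D2, with log2 -2.44. All 5 stayed under the threshold in every alternative fit.

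Neighbours could also be higher in D2. The smallest adjusted p among these belonged to the anchor over Gm48220 on chromosome 13 (chr13:65989843-65998104), with 17 and 14 other counts in B6 and 118 and 63 in D2 (edgeR adjusted p 4.37e-08 for a log2 fold change of 2.58 with SE 0.30). The anchor over H2-T22, also a class I histocompatibility gene (chr17:36040886-36045610), had 77 and 72 counts in B6 and 131 and 163 in D2 (edgeR adjusted p 7.20e-05 for a log2 fold change of 1.01 with SE 0.18). Gm8815 therefore had a neighbour that rose and a neighbour that fell within 100 kb. The start site of 2410141K09Rik, which joined 9 members, had 178 and 164 counts in B6 and 252 and 330 in D2 (fold change 0.79 on the log2 scale, SE 0.16). Its edgeR adjusted p was 4.95e-04, and it ranged up to 0.0522 over the alternatives. Anchors over Gm7762 (log2 0.93) and Gm40987 (log2 1.02) on chromosome 13 likewise passed the threshold and missed it in an alternative, with adjusted p up to 0.0865 and 0.0645.

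Anchors that shared a loop with a member, called partners here, were read by their other loops. Of the loops that touch members, 2108 and 2099 had counts in the B6 libraries and 109 and 148 in the D2 libraries. Partners were thus picked mostly through contacts seen in B6, which can favour anchors with more B6 counts. Their shares are therefore a description beside those of all anchors. Of 1905 partners tested, 422 were lower in D2 (22.2%, beside 6.71% of all anchors) and 48 higher (2.52%). Of the 1564 partners over 100 kb from every member, 320 were lower (20.5%) and 31 higher. Among all anchors, partners or not, 18.4% were lower at 100 to 200 kb from the nearest member and 22.7% at 200 to 500 kb. The share was 16.8% from 500 kb to 1 Mb and 9.94% from 1 to 2 Mb. Whether partners differ from other anchors at the same distance was not tested. Partners over a protein-coding start site numbered 724, with 131 lower (18.1%, beside 5.63% of all such anchors) and 19 higher (2.62%, beside 3.9%).

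Among distant partners lower in D2, the smallest adjusted p belonged to the anchor over Gm3365 on chromosome 8 (chr8:69560249-69587113), with 165 and 160 other counts in B6 and 27 and 29 in D2 (edgeR adjusted p 1.11e-11 for a log2 fold change of -2.50 with SE 0.21). Zfp729b, a zinc finger gene on chromosome 13 (chr13:67607545-67616457), had 202 and 181 in B6 and 38 and 51 in D2, with log2 -2.07. Rps7-ps1 (log2 -1.83), an intergenic anchor near Etv6 (log2 -2.04) and the anchor over Cbx3-ps4 (chr13:66853371-66870329, log2 -3.15) followed. The last of these is one of the anchors just outside the ratio threshold. Among distant partners higher in D2 were anchors over Gm20760 (log2 1.03), Gm21978 (log2 0.95) and Gm21411 (log2 0.86) on chromosome 4. Intergenic anchors at chr7:26590298-26598554 (log2 1.51) and chr13:66138666-66149330 (log2 1.30) passed the threshold and missed it in an alternative, with adjusted p up to 0.384 and 0.0511.

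The 10 protein-coding promoters that shared the most B6 counts with members are described next, a choice made after their values were seen. In 5 of them the other loops did not pass the threshold. Trim6, a further tripartite motif gene (chr7:104212945-104233181), shared 53 and 54 counts with the 4 Trim members in B6 and 0 and 2 in D2. Its other loops had 109 and 101 counts in B6 and 106 and 83 in D2, which is -0.11 on the log2 scale (SE 0.19, adjusted p 0.798 by edgeR). The Pkd2 and Spp1 promoters shared 34 and 25 counts with members in B6 and 3 and 1 in D2, and their other loops had a log2 fold change of 0.02 (SE 0.19). The Nt5dc3 promoter shared 22 and 24 counts with a member in B6 and 1 and 0 in D2, with -0.17 (SE 0.16) in its other loops. The Zbtb37 start site had -0.36 (SE 0.18) in its other loops. Gm14401, on chromosome 2, shared 24 and 16 counts in B6 and 1 and 1 in D2, with 0.51 (SE 0.18, adjusted p 0.0655 by edgeR) in its other loops. A p that misses the threshold does not show that these loops were alike in both strains.

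The other 5 passed the threshold. The start site of 2410141K09Rik was higher in D2, as given above. The start-site anchor of Zfp951 named among the loops had 290 and 302 other counts in B6 and 104 and 109 in D2, with log2 -1.44. A second start-site anchor of Zfp951 (chr5:104842854-104862891) had 261 and 263 in B6 and 84 and 91 in D2 (edgeR adjusted p 9.56e-09 for a log2 fold change of -1.55 with SE 0.17). A second anchor over a Zfp984 start site (chr4:147802708-147826543) had 400 and 375 in B6 and 117 and 159 in D2, with log2 -1.46. Gm14412, inside the chromosome 2 cluster, had 114 and 113 in B6 and 65 and 56 in D2 (edgeR adjusted p 0.00149 for a log2 fold change of -0.87 with SE 0.19). Outside these 10, and named because it lies 931 bp from the single-copy intronic member, the Apbb2 start site had 213 and 206 other counts in B6 and 93 and 88 in D2 (edgeR adjusted p 2.96e-06 for a log2 fold change of -1.17 with SE 0.17).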

How the data were processed

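H3K27ac HiChIP was measured in 4 libraries of 4 mouse embryonic stem cell lines. The submitters' processing notes name HiC-Pro 2.11.4, DESeq2 and mm10, with no role or order; how anchors and filters were set is not given in the sources used here. The deposited table gives raw read-pair counts per pair of anchors, with no normalization by the authors. The deposited files of single libraries repeat those counts and add a value from 0 to 1, taken as the authors' q-value of the pair. All 56562 anchors start and end at GATC in GRCm38, and coordinates are on that assembly. Genes are from GENCODE M21.

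Counts were summed per anchor. A count over the 4 libraries of at least 20 was required. Fits were made in R 4.3.3 by edgeR 4.0.16 and limma 3.58.1 (quasi-likelihood test, TMM, strain as the only term, Benjamini-Hochberg adjustment). DESeq2 1.42.0 was an alternative. SE is the log2 fold change divided by the square root of the fit's F. The fit without member loops was tested on simulated data: of 94 anchors made 3-fold lower 77.7% were called, and of 95 made 10-fold lower 98.9%, with 3 false calls among 51299 anchors. The simulated counts were drawn for each anchor separately with the fit's own spread, whereas each real read pair counts in both of its anchors. The few false calls therefore do not measure how many the real data hold. Repetition was counted over 75-base stretches on both strands of the reference.

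Members and lists were chosen with earlier results of these data known. Named are the 10 members with most counts, the 3 with most counts among those at 0 in D2, members over protein-coding start sites, the 5 largest clusters (ties by counts), 3 anchors on each side of the threshold, the 5 loops with most counts, in each direction the 5 neighbours and 5 distant partners of smallest adjusted p, and every family as a count. Replicates with the same number did not deviate together (correlation of deviations 0.01), so no block was used. The X and Y chromosomes were not analysed here.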

Additional observations from a re-analysis of the deposited data

How the results depend on the processing

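The number of anchors nearly absent from D2 followed the rule's settings. It was 243 with a count minimum of 10, 50 with a minimum of 50 and 21 with 100. It was 273 at a ratio threshold of 0.2 and 90 when loops with a single count were left out. Leaving out 1 library gave 68 to 193 anchors, with 77 and 68 without B6 replicates 1 and 2, of which 69 and 67 were among the 141. The exchanged rule gave 7 anchors low in B6 at a threshold of 0.2 and 2 with a count minimum of 10. The held-out share, pooled over both directions, was 62.2%, and 66.5% with at least 20 counts in the choosing libraries. Called neighbours numbered 132 within 100 kb, 47 within 20 kb and 478 within 500 kb, and 49 by DESeq2's Wald test. They numbered 85 to 132 with 1 library left out, and 85 was without B6 replicate 2. Called partners numbered 470, 172 by DESeq2's Wald test and 286 to 548 with 1 library left out, where 286 and 299 were without B6 replicates 1 and 2. Without D2 replicate 2, 135 partners were higher instead of 48, and 7.53% of all anchors instead of 2.59%. Called loops of the set numbered 24, 0 by DESeq2's Wald test, 2 with a count minimum of 50 and 6 to 21 with 1 library left out, where 6 was without either B6 library. With the replicate number as a block, 138 neighbours, 517 partners and 24 loops were called. The cause of these moves was not tested beyond the fewer libraries or anchors that a setting leaves. Counts in D2 of 0 to 8 limit every ratio given for a single anchor, and anchors with fewer than 20 counts could not enter.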

Other observations

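The authors' q-values of the loops that touch the 141 anchors come from the same counts that chose the anchors, so they are a description. At a q-value under 0.01, 197 and 176 of these loops were called in the B6 libraries and 3 and 1 in the D2 libraries. These were 9.35% and 8.39% of the loops of the set with a count in B6, where 20.2% and 19.7% of all loops with a count were called. In D2 they were 2.75% of 109 and 0.676% of 148 loops with a count, beside 21% and 20.2% of all.

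The 7 anchors low in B6 at the threshold of 0.2 were on chromosomes 4, 6, 9, 13 and 15. The one with the most counts, over the start site of Gm47001 (chr9:11100609-11109829), had 20 and 15 counts in B6 and 105 and 79 in D2. The anchor over Gm48220 and Gm48221 (chr13:65989843-65998104) had 17 and 15 in B6 and 118 and 63 in D2. An intergenic anchor at chr15:17093532-17097195, single-copy over the stretches read, had 4 and 5 in B6 and 32 and 27 in D2. None of the 7 had a B6 library at 0. One of the 7, at chr6:114561393-114567266 with 1 and 2 counts in B6 and 9 and 11 in D2, lay 41191 bp from the nearer of 2 neighbouring members at chr6:114503489-114520202, which had 38 and 41 counts in B6 and 3 and 2 in D2.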
